A study of Mus musculus with 11 samples.

Results

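The miR-30 family is described here by 10 mature microRNAs, the 5p and 3p arms of miR-30a, miR-30b, miR-30c, miR-30d and miR-30e, chosen by name from the 1966 mouse microRNAs of the count table. They carry the prefix mmu- in the table, as in mmu-miR-30a-5p, mmu-miR-30c-5p, mmu-miR-30d-5p and mmu-miR-30e-5p, and the prefix is dropped from here on. Small RNA was sequenced from mouse embryonic stem cells, which derive from the early embryo and were grown without feeder cells in 2i medium with leukaemia inhibitory factor. All 10 members were among the 730 microRNAs that passed the filter on low counts. The comparison of miR-30d with miR-30c in the knockout was chosen because miR-30d was known to fall less there, so the values of that pair in KO against WT are a description without a p-value, although both are among the counts of calls.

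The libraries fell into 5 groups, all with the strain label NBA1-19349, Novus Biochemicals. The induced E518K group held 3 libraries, clones 8, 13 and 15, with the genotype label DGCR8 E518K/E518K, transfected with pSB ET iE-FlagDGCR8-E518K plus pCMV(CAT)-SB100X, the plasmid for the Sleeping Beauty transposase, and given doxycycline at 300 ng/mL for 48 h. One E518K library, clone 8, and one WT library, clone 10, came from such transfected cells without doxycycline, and the design text gives their purpose as a measure of leaky vector expression. The KO group held 3 libraries with the genotype DGCR8 -/-, not transfected but given the same doxycycline. The induced WT group held 3 libraries, clones 10, 12 and 16, labelled DGCR8 wt/wt, transfected with pSB ET iE-FlagDGCR8-wt plus the same transposase plasmid and given the same doxycycline. All 3 KO titles name clone 261, although the design text speaks of independent clones, so the KO spread may be that of 1 clone. Where nothing says that libraries came from separate cultures, p-values measure only the spread between these samples, which may be technical.

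DGCR8 binds RNA for Drosha, a nuclease, and the pair form the Microprocessor, which cuts a hairpin out of a primary microRNA transcript. Dicer then cuts the hairpin into a 5p and a 3p arm, and usually 1 of the arms is kept more often in the silencing complex. E518K is a recurrent DGCR8 substitution found in Wilms tumour, a childhood kidney tumour. The miR-30 family is known for high levels in kidney and heart and for repressing messages through the seed of its 5p arms, among them the autophagy gene Beclin.

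RefSeq sequences on GRCm38.p6 matched 6 of the 10 members. The mature arms are shown because the family is defined by its seed, bases 2 to 8 counted from the 5′ end, which stands in capitals.
miR-30a-5p: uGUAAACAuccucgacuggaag
miR-30c-5p: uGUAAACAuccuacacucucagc
miR-30e-5p: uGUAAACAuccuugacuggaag
miR-30a-3p: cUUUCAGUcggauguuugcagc
miR-30e-3p: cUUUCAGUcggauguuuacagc
miR-30c-1-3p: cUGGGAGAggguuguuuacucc
miR-30c-2-3p: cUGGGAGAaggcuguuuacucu

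The 3 5p arms share 1 seed. The 3p arms of miR-30a and miR-30e share another seed, and those of the miR-30c hairpins share one of their own. With positions counted from 1 at the 5′ end, miR-30e-5p differs from miR-30a-5p by the single substitution C13U, and miR-30e-3p differs from miR-30a-3p by G18A. The arm miR-30c-2-3p, which is not among the 10 members, differs from miR-30c-1-3p by G9A, U12C and C22U. One more microRNA of the table with the 5p seed, miR-384-5p, was listed at 0 in every library.

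The hairpins form 3 neighbour pairs. Mir30a lies on the plus strand of chromosome 1 at 23272269 to 23272339, with no overlapping gene in GENCODE vM21, and Mir30c-2 follows 19362 bases on, at 23291701 to 23291784 in an exon of the noncoding gene Gm27028. Mir30c-1, at 120769534 to 120769622, and Mir30e, at 120772606 to 120772697, lie 2984 bases apart on the minus strand of chromosome 4, in introns of Nfyc, which encodes a subunit of the transcription factor NF-Y. Mir30b and Mir30d lie 3698 bases apart on the minus strand of chromosome 15, in exons of noncoding genes.

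The hairpins with an available sequence are given because the Microprocessor reads their stem and loop, with the 2 mature arms in capitals.
Mir30a: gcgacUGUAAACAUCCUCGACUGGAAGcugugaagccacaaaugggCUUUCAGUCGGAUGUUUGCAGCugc
Mir30c-2: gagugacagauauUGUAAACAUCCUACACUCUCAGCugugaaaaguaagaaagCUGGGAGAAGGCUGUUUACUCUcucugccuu
Mir30c-1: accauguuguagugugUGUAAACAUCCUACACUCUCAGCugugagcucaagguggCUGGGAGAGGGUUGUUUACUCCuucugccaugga
Mir30e: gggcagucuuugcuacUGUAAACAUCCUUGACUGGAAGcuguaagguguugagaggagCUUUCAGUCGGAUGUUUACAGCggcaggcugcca

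The motif UGUG, searched on the hairpin strand between the arms, was present in Mir30a, Mir30c-2 and Mir30c-1 and not in Mir30e. It was found in 78 of 644 hairpins searched, or 12.1%. A match is a description of the letters and not a binding site.

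Total microRNA counts were 1050564 to 1797240 in induced E518K, 264507 in untreated E518K, 1421247 in untreated WT, 166676 to 208846 in KO and 3394216 to 6128734 in induced WT libraries. A floor of 6 counts per library, set above the usual 3 because most small counts were even, equalled 12.8 to 18.3 CPM in KO and 19.1 CPM in untreated E518K, the libraries with the lowest totals. CPM is the count per 1e6 counts, here scaled by the trimmed mean of M-values (TMM). The 4 embryonic stem cell markers of the miR-290 cluster, which are themselves made through DGCR8, summed to 28535 to 33323 CPM in induced E518K, 2111 CPM in untreated E518K, 43791 CPM in untreated WT, 81.0 to 183 CPM in KO and 31825 to 47890 CPM in induced WT libraries, and none was at 0 in a whole group. The liver marker miR-122-5p stood at 8.32 to 16.1 CPM in induced E518K, 102 CPM in untreated E518K, 2.92 CPM in untreated WT, 54.1 to 91.6 CPM in KO and 1.21 to 3.34 CPM in induced WT libraries. The 2 neural markers summed to 574 to 1259 CPM in induced E518K, 324 CPM in untreated E518K, 1435 CPM in untreated WT, 18.3 to 72.1 CPM in KO and 786 to 884 CPM in induced WT libraries, with miR-124-3p at 0 in KO and untreated E518K. The 2 fibroblast markers summed to 903 to 1304 CPM in induced E518K, 2066 CPM in untreated E518K and 408 CPM in untreated WT. Their sums were 627 to 1562 CPM in KO and 662 to 1009 CPM in induced WT libraries. In any library, the 2 muscle markers summed to at most 89.0 CPM and the 2 blood markers to at most 162 CPM. The part of these markers in the results was not tested, and in bulk libraries fewer cells of a type and less RNA per cell cannot be told apart.

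Counting set 2 limits on single members. Of the nonzero counts of 1 to 40, 90.3% were even, and miR-30c-5p, whose sequence is the same in both its hairpins, was even in all 11 libraries. Not every member was even throughout, as miR-30d-5p, at 131 counts or more per library, was even in 2 of 11. Why most small counts were even was not tested. Among microRNAs counted in every library, 13 of 21 with 2 hairpins were even throughout, against 5 of 148 with 1 hairpin, so miR-30c-5p may count each read at both hairpins and its level against other members may be too high. Ratios of miR-30c-5p between groups are not touched by a constant factor. miR-30e-3p could not be told apart from miR-30f, whose hairpin is annotated on the opposite strand at the coordinates of Mir30e, with the mature arms at 120772618 to 120772639 for miR-30e-3p and 120772621 to 120772642 for miR-30f: their counts differed by 0 to 8 and were equal in 7 of 11 libraries.

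The family as a whole made up 1.33%, 1.01% and 1.09% of microRNA counts in induced E518K clones 8, 13 and 15, 0.338% in untreated E518K, 2.42% in untreated WT, 0.281%, 0.410% and 0.318% in KO, and 1.30%, 1.30% and 2.04% in induced WT clones 10, 12 and 16. By this share, KO was below every induced E518K and induced WT library, and untreated E518K lay within the KO range. In TMM-scaled CPM the family summed to 2838 in untreated E518K, above the 1250, 2054 and 1642 of KO libraries 1, 2 and 3. The mean shares of microRNA counts were 1.14% ± 0.166 in induced E518K, 0.336% ± 0.0668 in KO and 1.55% ± 0.425 in induced WT libraries (SD, n = 3 each).

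**Figure D1:**
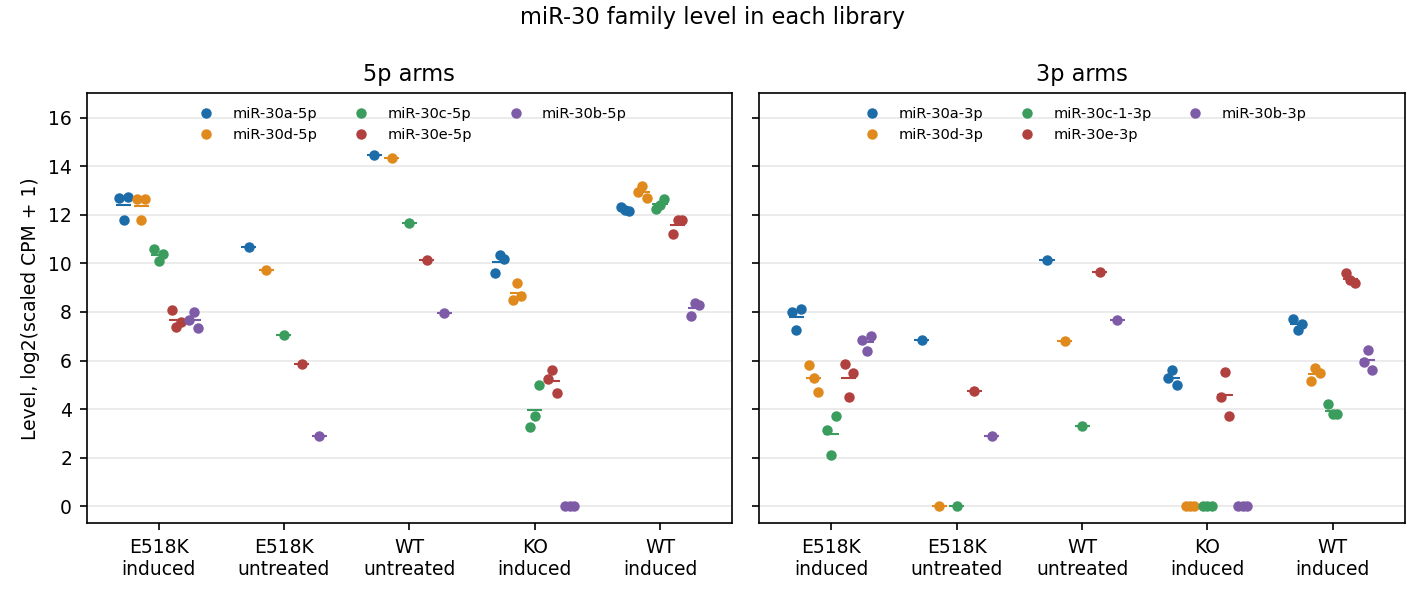
Level of each member in each library as log2(scaled CPM + 1), 5p arms on the left and 3p arms on the right, one point per library and a short bar at the group mean. miR-30a-5p and miR-30d-5p were the highest members in KO, while miR-30b-5p and 3 of the 3p arms were listed at 0 in all 3 KO libraries.

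In KO against induced WT cells, all 10 members were lower at an edgeR adjusted p below 0.05, beside 58.4% of all 730 microRNAs tested that were lower and 30.0% that were higher. For all 10, every KO library lay below every WT library in TMM-scaled CPM, as it did for 60.0% of all microRNAs tested. As a percentage of microRNA counts, miR-30a-5p overlapped, with 0.263% in KO library 2 against 0.251% in WT clone 12. miR-30a-3p overlapped too, with 0.00960% in KO library 2 against 0.00822% in WT clone 12. The size of the fall differed between members: miR-30a-5p was 4.43-fold lower and miR-30c-5p 340-fold lower. The median log2 change was −6.94 over the members, or −3.17 with the 4 members listed at 0 in KO put at their bound (at 0 for miR-30c-1-3p, which has none), and −3.54 over all microRNAs tested. The value of −3.54 puts no microRNA at a bound, so it can be set beside −6.94 and not beside −3.17. For comparison, 11 of 12 microRNAs on a list taken as made without DGCR8 were higher in KO, with a median log2 change of 4.79.

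miR-30a-5p, the most abundant member in KO, stood at 789, 1315 and 1145 CPM in KO libraries 1, 2 and 3 (370, 438 and 375 counts), against 5165, 4680 and 4536 CPM in WT clones 10, 12 and 16. In CPM, every KO library was below every WT library. The log2 change was −2.15 ± 0.40 (SE, n = 3 each; edgeR adjusted p = 1.54e-07), a 4.43-fold lower level. Its 3p arm, from the other strand of the same stem, stood at 38.4, 48.0 and 30.5 CPM in KO, against 210, 153 and 179 CPM in WT. The log2 change of miR-30a-3p was −2.21 ± 0.46 (edgeR adjusted p = 3.33e-06). Scaled by total counts instead, miR-30a-5p changed by −0.56 (adjusted p = 0.172) and miR-30a-3p by −0.62 (adjusted p = 0.275), and both calls were lost. Without KO library 3, miR-30a-5p changed by −1.53. The miR-30a-3p change was −2.88, −1.57 and −1.37 without KO library 1, 2 and 3, and −1.55 without WT clone 10.

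miR-30d-5p, the second most abundant member in KO, stood at 356, 586 and 400 CPM in KO (167, 195 and 131 counts), against 7963, 9318 and 6692 CPM in WT. The groups did not overlap. The log2 change was −4.16 ± 0.43, 17.9-fold lower; it was −3.42 without KO library 3 and −3.45 without WT clone 12. Its 3p arm was listed at 0 in all 3 KO libraries, against 34.8, 51.0 and 43.8 CPM in WT, at least 2.64-fold lower against the floor of 6 counts per library. At the WT ratio of the arms, the 493 KO counts of miR-30d-5p would come with 2.69 counts of miR-30d-3p, so a change in arm use was not detectable at this depth.

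miR-30c-5p, made from 2 hairpins on different chromosomes, had 4, 4 and 10 counts in KO (8.53, 12.0 and 30.5 CPM), against 4837, 5403 and 6512 CPM in WT. Every KO library lay far below every WT library, with KO counts near the 6-count floor. The log2 change was −8.41 ± 0.55, or 340-fold lower, and −7.56 without KO library 2. miR-30c-1-3p was listed at 0 in KO, against 17.7, 12.8 and 12.8 CPM in WT. The WT mean of 14.4 CPM was under the mean KO floor of 16.4 CPM, so no fold is given. Its call as lower, and its lack of overlap, thus rest on values near the floor.

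miR-30e-5p, which differs from miR-30a-5p by 1 base, stood at 36.3, 48.0 and 24.4 CPM in KO, against 2373, 3562 and 3504 CPM in WT. The groups did not overlap, and the log2 change was −6.44 ± 0.50 (edgeR adjusted p = 8.62e-34), or 86.6-fold lower. It was −7.11 without KO library 1, −5.57 without KO library 3 and −5.80 without WT clone 12. miR-30e-3p stood at 21.3, 45.0 and 12.2 CPM in KO, against 781, 646 and 578 CPM in WT. Its log2 change was −4.68 ± 0.50 (edgeR adjusted p = 3.86e-19), and it was −3.69 without KO library 3, −4.01 without WT clone 10 and −4.09 without WT clone 12. Both arms of this hairpin were lower in KO by far more than both arms of miR-30a, in the same libraries.

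miR-30b-5p, encoded beside miR-30d, was listed at 0 in all 3 KO libraries, against 225, 325 and 310 CPM in WT, at least 17.5-fold lower. The 3p arm of miR-30b was also at 0 in KO, against 60.9, 85.9 and 48.4 CPM in WT, at least 3.97-fold lower.

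Within a library, the ratio of miR-30d-5p to miR-30c-5p counts needs no scaling. It was 41.8, 48.8 and 13.1 in KO, against 1.65, 1.72 and 1.03 in WT, and the groups did not overlap. With the KO counts summed, 493 of miR-30d-5p over 18 of miR-30c-5p gave 27.4, with an exact binomial 95% interval of 14.2 to 60.5 on halved counts, which is wider than on the counts as deposited and covers counting error only. The ratio in KO is a description, because the pair was chosen for it.

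The make-up of the family was described without a test. Of the summed 5p counts, miR-30a-5p took 43.5% ± 2.14 in induced E518K, 68.3% ± 2.84 in KO and 22.1% ± 2.67 in induced WT libraries (SD, n = 3 each). miR-30d-5p took 42.3% ± 1.22 in induced E518K, 28.3% ± 2.83 in KO and 36.6% ± 4.85 in induced WT. miR-30c-5p took 10.7% ± 2.02 in induced E518K, 1.08% ± 0.720 in KO and 25.6% ± 3.96 in induced WT. miR-30a-5p had its greatest share in KO, where miR-30c-5p had its smallest. miR-30e-5p took 1.66% ± 0.366 in induced E518K, 2.34% ± 0.766 in KO and 14.4% ± 2.49 in induced WT. With miR-30c-5p halved for its 2 hairpins, an alternative chosen after seeing the data, its share was 5.64% in induced E518K and 14.7% in induced WT.

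**Figure D2:**
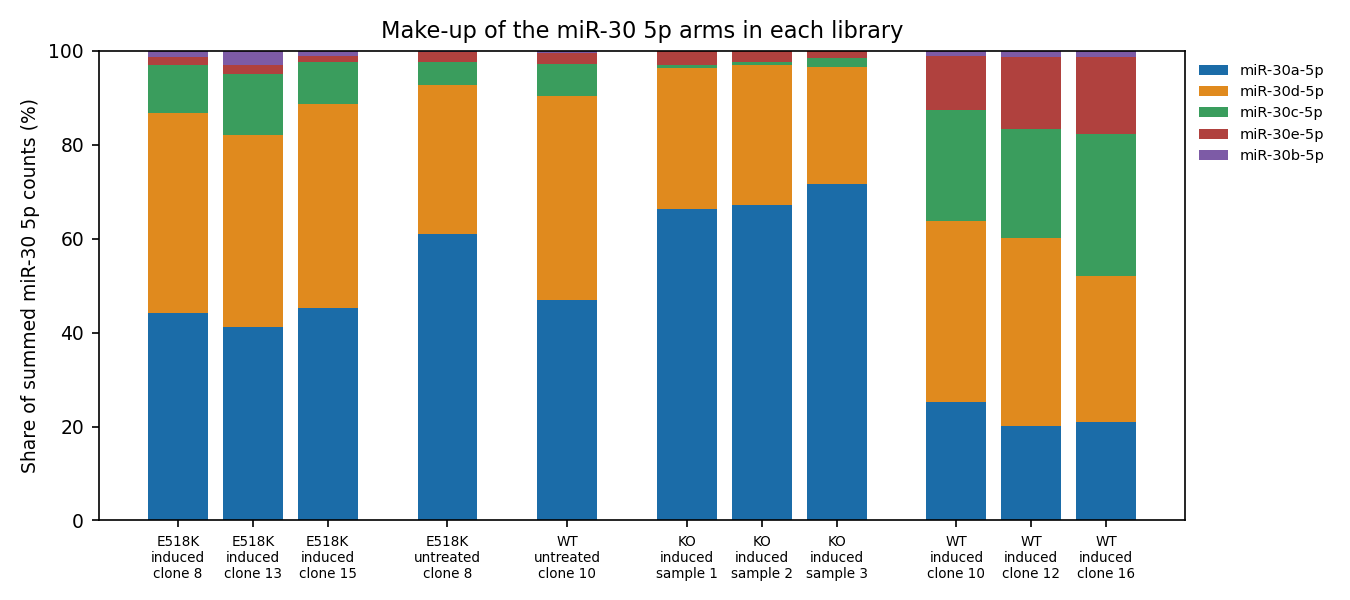
Share of each member in the summed 5p counts of the family, in percent, one stacked bar per library. In KO, miR-30a-5p takes 66.3% to 71.6% and miR-30c-5p at most a thin band, while in induced WT libraries 4 members hold large shares.

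In induced E518K against induced WT cells, some members were called lower and the others did not pass. 3 of 10 members were lower, beside 35.3% of all microRNAs tested, a similar share, and 0 of 10 were higher, beside 28.2%. None was higher at an unadjusted p below 0.05, and DESeq2 also called 0 higher; without WT clone 16, edgeR called 1 higher. For 5 of 10 members every E518K library lay below every WT library in TMM-scaled CPM, beside 38.8% of all microRNAs tested. As a percentage of microRNA counts, miR-30d-5p and miR-30c-1-3p, which are among these, overlapped. The median log2 change was −0.51 over the members and −0.14 over all microRNAs tested. The same induced WT libraries entered the choice of miR-30d and miR-30c. The p-values of that pair here, and the call for miR-30c-5p, are thus no independent support.

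miR-30e-5p stood at 268, 168 and 189 CPM in E518K clones 8, 13 and 15, against 2373, 3562 and 3504 CPM in WT. Every E518K library lay below every WT library. The log2 change was −3.91 ± 0.42 (SE, n = 3 each; edgeR adjusted p = 4.59e-18), 15.1-fold lower, and −3.13 without WT clone 16. miR-30e-3p stood at 56.3, 21.6 and 43.3 CPM in E518K, against 781, 646 and 578 CPM in WT, with a log2 change of −4.04 ± 0.45 (edgeR adjusted p = 8.97e-17), and −3.41 without WT clone 16. Both arms of Mir30e thus fell together and to a similar degree.

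miR-30c-5p stood at 1526, 1103 and 1356 CPM in E518K, against 4837, 5403 and 6512 CPM in WT, without overlap. The log2 change was −2.07 ± 0.39 (edgeR adjusted p = 4.54e-07), 4.20-fold lower, and −1.22 without WT clone 16. miR-30c-1-3p had 7.85, 3.33 and 12.1 CPM in E518K, against 17.7, 12.8 and 12.8 CPM in WT, and did not pass (log2 change −0.90 ± 0.63, edgeR adjusted p = 0.197).

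The hairpins of miR-30a, miR-30b and miR-30d gave no call. miR-30a-5p stood at 6702, 3517 and 6825 CPM in E518K, against 5165, 4680 and 4536 CPM in WT, an overlap with a log2 change of 0.25 ± 0.38 (edgeR adjusted p = 0.574). miR-30d-5p stood at 6468, 3503 and 6534 CPM in E518K, against 7963, 9318 and 6692 CPM in WT. These ranges did not overlap, but the log2 change of −0.54 ± 0.38 did not pass (edgeR adjusted p = 0.202); DESeq2 gave −0.73 (adjusted p = 0.0203), and without WT clone 16 the edgeR change was 0.10. miR-30b-5p stood at 202, 254 and 162 CPM in E518K, against 225, 325 and 310 CPM in WT (log2 change −0.48 ± 0.40, edgeR adjusted p = 0.293). miR-30b-3p stood at 113, 82.4 and 129 CPM in E518K, against 60.9, 85.9 and 48.4 CPM in WT (log2 change 0.73 ± 0.45, edgeR adjusted p = 0.145). Without WT clone 16, miR-30b-3p changed by 1.30 and passed (edgeR adjusted p = 0.0455). Scaling by the summed DGCR8-independent list, which itself was higher in E518K, set the median change of all microRNAs at −2.90, against −0.14 with TMM, and made all 10 members lower, so the directions for miR-30a and miR-30b-3p hold for TMM and not for that scale.

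**Figure D3:**
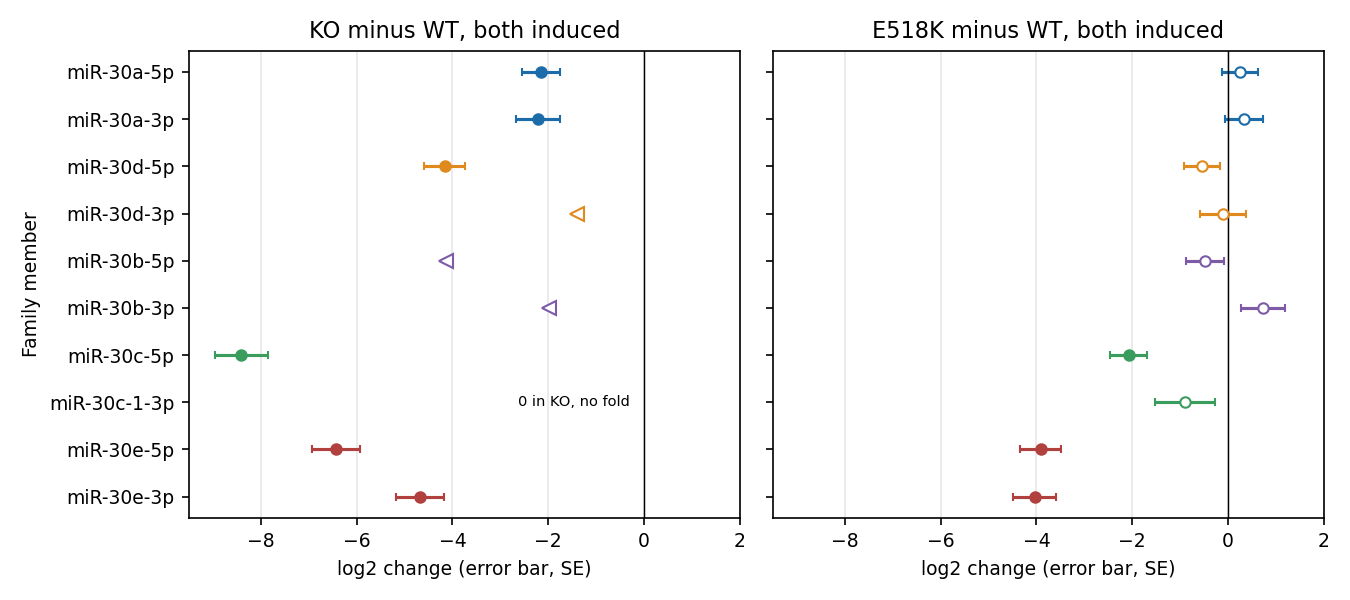
log2 change of each member with its SE, KO minus WT on the left and E518K minus WT on the right, all induced. Filled points passed an edgeR adjusted p below 0.05, open points did not, and triangles mark the smallest fall for members listed at 0 in every KO library. The miR-30e arms stand apart from the miR-30a arms in E518K against WT.

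The ratio of miR-30d-5p to miR-30c-5p was 4.24, 3.18 and 4.82 in E518K clones 8, 13 and 15, against 1.65, 1.72 and 1.03 in WT clones 10, 12 and 16. The induced groups did not overlap, but untreated WT stood at 6.48 and untreated E518K at 6.38, above all of them. The mean log2 ratio was 2.01 in E518K and 0.51 in WT, a difference of 1.49, or 2.81-fold, with a two-sided exact permutation p of 0.1, the smallest that 3 against 3 samples can give. The same WT libraries entered the choice of the pair, so this p is no independent support. The ratio of miR-30a-5p to miR-30e-5p was 25.0, 20.9 and 36.0 in E518K, against 2.18, 1.31 and 1.29 in induced WT. It was 28.7 in untreated E518K, 20.2 in untreated WT and 21.8 to 46.9 in KO, so induced WT stood below every other library, the untreated WT one included.

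In induced E518K against KO cells, 9 of 10 members were higher, beside 41.9% of all microRNAs tested that were higher and 26.2% that were lower. The same KO libraries entered the choice of miR-30d and miR-30c, so the p-values of that pair against KO are no independent support. miR-30c-5p had the largest change among members seen in KO, 6.34 ± 0.52 on the log2 scale (edgeR adjusted p = 1.43e-30), with 1526, 1103 and 1356 CPM in E518K against 8.53, 12.0 and 30.5 CPM in KO. miR-30d-5p changed by 3.62 ± 0.42 (edgeR adjusted p = 3.81e-16), miR-30e-5p by 2.52 ± 0.45 (edgeR adjusted p = 7.41e-08) and miR-30a-5p by 2.39 ± 0.40 (edgeR adjusted p = 1.09e-08). Leaving out single KO or E518K libraries kept these 4 calls, with changes of 5.40 without KO library 2 to 7.15 without E518K clone 15 for miR-30c-5p and 2.85 without KO library 3 to 4.29 without E518K clone 15 for miR-30d-5p. The changes were 1.54 without KO library 3 to 3.43 without E518K clone 15 for miR-30e-5p and 1.74 without KO library 3 to 3.04 without E518K clone 15 for miR-30a-5p, and values without E518K clone 8 lay inside these ranges. miR-30b-5p, at 162 to 254 CPM in E518K and 0 in KO, was at least 12.6-fold lower in KO. miR-30e-3p did not pass, with 56.3, 21.6 and 43.3 CPM in E518K against 21.3, 45.0 and 12.2 CPM in KO (log2 change 0.64 ± 0.50, edgeR adjusted p = 0.239). Without KO library 3 and without E518K clone 8 its change was −0.41 and −0.22. It passed without KO library 1 (1.21, adjusted p = 0.0397), without E518K clone 15 (1.41, adjusted p = 0.0182) with only the 3 induced groups in the fit (1.39, adjusted p = 0.00729), with pRPM as the scale (2.36, adjusted p = 5.94e-05) and with the DGCR8-independent list as the scale (3.07, adjusted p = 3.09e-10), which made all 10 members higher. The call for miR-30c-1-3p, at 3.33 to 12.1 CPM in E518K and under the KO floor, was lost without KO library 2 (adjusted p = 0.0742) or 3 (adjusted p = 0.0688) and with total counts (adjusted p = 0.0641).

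The arms of a hairpin can be compared within a library. For miR-30c, the 5p counts divided by the sum of both 3p arms were 27.1, 41.4 and 28.0 in induced E518K, against 74.7, 88.5 and 112 in induced WT libraries. Every E518K ratio was below every WT ratio, and the untreated WT library stood at 24.8, below all 3 E518K ratios. The sums of the 3p arms behind these ratios were 86, 32 and 48 counts in E518K and 132, 201 and 314 counts in WT. For miR-30b the ratio was 1.79, 3.08 and 1.26 in E518K, against 3.70, 3.78 and 6.40 in WT, again without overlap. In untreated WT the miR-30b ratio was 1.20, on 168 over 140 counts, below all 3 E518K ratios. For miR-30a it was 24.8 ± 1.84 in induced E518K, 28.5 ± 8.53 in KO and 26.8 ± 3.25 in induced WT libraries (SD, n = 3 each), and the ranges overlapped. For miR-30e it was 5.63 ± 1.86 in induced E518K, against 4.87 ± 1.61 in induced WT, with overlap. The miR-30e ratio was 1.70, 1.07 and 2.00 in KO, on 17, 16 and 8 counts over 10, 15 and 4. It was 1.40 in untreated WT, on 763 over 545 counts, and 2.25 in untreated E518K, on 18 over 8. All of these lay below every induced E518K and induced WT ratio of miR-30e. These arm ratios are descriptions without a test.

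**Figure D4:**
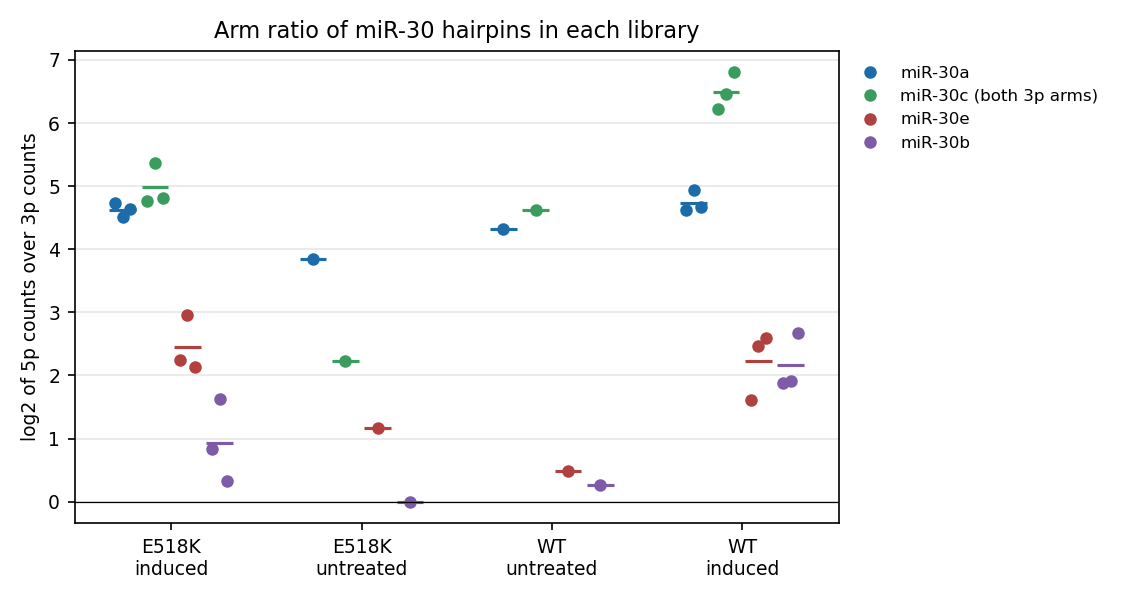
log2 of the ratio of 5p to 3p counts in each library for 4 hairpins, with both miR-30c 3p arms summed; KO is left out because several arms were at 0. Each point is a library. The miR-30c and miR-30b ratios of induced E518K lie below those of induced WT, and the miR-30a and miR-30e ratios overlap. For miR-30c and miR-30b, untreated WT lies below induced E518K.

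The ratios of neighbouring hairpins in induced E518K and induced WT depended on the pair and on the arm compared, with no test. The 3p arms of Mir30a and Mir30c-2, on chromosome 1, stood in a ratio of 5.22, 6.61 and 7.56 in E518K, against 4.46, 3.17 and 3.93 in WT, without overlap. miR-30b-5p over miR-30d-5p, on chromosome 15, was 0.0313, 0.0724 and 0.0248 in E518K, against 0.0283, 0.0349 and 0.0463 in WT, and the groups overlapped. On 3p arms, E518K clones 8, 13 and 15 had 173, 99 and 128 counts of miR-30b-3p over 85, 46 and 25 of miR-30d-3p. WT clones 10, 12 and 16 had 124, 283 and 261 over 71, 168 and 236. Every E518K ratio of these 3p arms was above every WT ratio. Untreated WT, with 140 over 76 counts, lay between the induced groups. For Mir30c-1 and Mir30e no 5p ratio is given, since miR-30c-5p also comes from Mir30c-2. Their 3p arms can be compared, as miR-30c-1-3p comes from Mir30c-1 alone. E518K clones 8, 13 and 15 had 12, 4 and 12 counts of miR-30c-1-3p over 86, 26 and 43 of miR-30e-3p. WT clones 10, 12 and 16 had 36, 42 and 69 over 1591, 2127 and 3119. Every E518K ratio of this pair was above every WT ratio, on few E518K counts and with miR-30e-3p not told apart from miR-30f. Untreated WT had 6 over 545 counts, a ratio below every induced WT ratio.

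The untreated libraries, with 1 sample each, were tested against KO on the assumption that they vary like the other groups. For both, the KO libraries are those that entered the choice of miR-30d and miR-30c. The p-values of that pair against KO are thus no independent support. In untreated WT, all 10 members were higher than in KO, beside 43.3% of all microRNAs tested that were higher and 13.4% that were lower. Of these members, miR-30c-1-3p had 6 counts (8.75 CPM) in untreated WT, under the KO floor, so its 0 in KO gives no fold. miR-30a-5p stood at 22518 CPM and miR-30d-5p at 20822 CPM in untreated WT, against 789 to 1315 CPM and 356 to 586 CPM in KO. The log2 changes were 4.38 ± 0.49 for miR-30a-5p, 5.54 ± 0.51 for miR-30d-5p, 7.61 ± 0.58 for miR-30c-5p and 4.94 ± 0.53 for miR-30e-5p, with adjusted p-values from edgeR of 3.07e-17, 7.64e-25, 8.01e-35 and 1.18e-18. Without KO library 2 they were 3.26, 4.47, 6.19 and 3.82, and without KO library 3 the changes of miR-30a-5p, miR-30d-5p and miR-30e-5p were 3.23, 4.28 and 3.50. The call for miR-30c-1-3p was lost without KO library 2 (adjusted p = 0.145) or 3 (adjusted p = 0.14), with total counts (adjusted p = 0.174) and with DESeq2 (adjusted p = 0.086), which left 9 of 10 members higher.

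The make-up of untreated WT clone 10 can be set beside its induced library. miR-30a-5p took 25.1% of the summed 5p counts in the induced library of clone 10 (exact 95% interval 24.5% to 25.7%), against 47.0% in the untreated one (46.2% to 47.8%). miR-30c-5p took 23.5% with induction, against 6.71% without, and miR-30e-5p took 11.5% with induction, against 2.32% without. The intervals cover counting error only and were computed on halved counts. The untreated WT share of miR-30e-5p lay close to those of untreated E518K, at 2.13%, and KO, at 2.34% ± 0.766, and above the 1.26% to 1.97% of induced E518K.

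In untreated E518K, 1 of 10 members was higher than in KO, beside 15.2% of all microRNAs tested that were higher and 0.137% that were lower. miR-30c-5p had 42 counts (133 CPM) in untreated E518K, against 4, 4 and 10 counts in KO, and its log2 change was 3.02 ± 0.63 (edgeR adjusted p = 2.41e-05). That call was lost without KO library 2 (2.08, adjusted p = 0.0531). Without KO library 1, miR-30a-3p (2.24, adjusted p = 0.00481) and miR-30d-5p (1.49, adjusted p = 0.0178) passed as well. miR-30a-5p stood at 1643 CPM in untreated E518K, against 789 to 1315 CPM in KO, and did not pass (log2 change 0.60 ± 0.52, edgeR adjusted p = 0.601).

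The order of the groups was not the same for each 5p arm. miR-30c-5p and miR-30e-5p ran from KO through untreated E518K, induced E518K and untreated WT to induced WT, with no overlap between neighbours in TMM-scaled CPM. As a percentage of microRNA counts, untreated E518K lay inside the KO range for miR-30e-5p (0.00681% against 0.00472% to 0.00960%) and for miR-30d-5p (0.101% against 0.0774% to 0.117%), and neither passed against KO (edgeR adjusted p = 0.711 and 0.279). In CPM, miR-30d-5p had the same lower steps, but untreated WT, at 20822 CPM, stood above induced WT at 6692 to 9318 CPM. For miR-30a-5p, untreated WT was also highest, and induced E518K and induced WT overlapped.

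Outside the family, the microRNAs whose centred log2 levels over the 11 libraries were nearest to miR-30d-5p were miR-33-5p, miR-128-1-5p and miR-146a-5p, with root mean square differences of 0.51, 0.53 and 0.56. Within the family, miR-30a-5p ranked 17 of 470 by that measure, at 0.79, and miR-30c-5p ranked 172, at 1.68. Nearest to miR-30c-5p were miR-499-5p, miR-200a-3p and miR-382-3p, at 0.56, 0.65 and 0.68, and miR-30b-5p ranked 9 of 470, at 0.78. The libraries of all these values are the same 11, and shared depth enters every one of them.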

How the data were processed

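The authors deposited whole-number counts per mature microRNA for 11 small RNA libraries, prepared with NEBNext Multiplex reagents for small RNA, per the labels' protocols. Per the submitters' processing notes, STAR and bedtools were used with the build GRCm38.p6; their versions, and how reads were trimmed and counted, are not stated in the labels or headers. The authors also deposited the same microRNAs in a scaled RPM unit called pRPM: each column is the counts times 1 constant, and 100.0% of nonzero values gave whole reads within 0.01, equal to the counts, so a count test on them is the test reported here. A deposited table with a piRNA name held the same values and was not used.

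Groups and clone numbers came from the titles. Counts were fitted with edgeR 4.0.16 in R 4.3.3 (filterByExpr, TMM, robust quasi-likelihood test, all 11 libraries in 5 groups), with Benjamini-Hochberg adjustment over 730 microRNAs and a threshold of 0.05. The standard error is the log2 change over the square root of F. Alternatives were total counts, DESeq2 size factors, the DGCR8-independent list, pRPM, no filter, DESeq2 1.42.0, the induced groups alone and leaving out each library. Ratios used raw counts with a pseudocount of 0.5 on the log2 scale. Named were all members, other arms with the family seed, and the 3 microRNAs of at least 10 CPM with a log2 pattern nearest to miR-30d-5p and miR-30c-5p. The members and lists were chosen with earlier results of these data known, and the loop window after the sequences were seen. Replicate libraries differed by more than sampling noise.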

Additional observations from a re-analysis of the deposited data

How the results depend on the processing

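Depth limits KO, where members under 6 counts per library could not be ranked, and total counts, TMM and the DGCR8-independent list set the median of all microRNAs at different points: for KO against WT at −2.03, −3.54 and −8.23. In KO against WT, 8 of 10 members stayed lower with total counts. No paired analysis was possible because the induced groups share no clone numbers and each untreated library shares 1 clone with its induced group.

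With total counts, E518K minus WT was 0.30 for miR-30d-3p, E518K minus KO was −0.63 for miR-30e-3p, untreated WT against KO gave 215 lower and 209 higher microRNAs, and untreated E518K against KO gave 68 higher. With the DGCR8-independent list as the scale, E518K minus WT was −2.51 for miR-30a-5p, −2.43 for miR-30a-3p and −2.03 for miR-30b-3p, with 10 members lower, 498 microRNAs lower and 12 higher. On that scale KO against WT gave 26 higher, E518K against KO 30 lower, untreated WT against KO 13 lower, and untreated E518K against KO 6 lower and 72 higher. With pRPM, E518K against KO gave 61 lower, untreated WT against KO 34 and untreated E518K against KO 0; without the filter the last was 0, and with DESeq2 5. With TMM the counts were 426 lower and 219 higher for KO against WT, 258 and 206 for E518K against WT, 191 and 306 for E518K against KO, 98 and 316 for untreated WT against KO, and 1 and 111 for untreated E518K against KO. The cause of these moves was not tested. With miR-30c-5p halved, miR-30a-5p, miR-30d-5p and miR-30c-5p took 46.0%, 44.7% and 5.64% in E518K and 25.3%, 41.9% and 14.7% in WT.

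Leaving out each library in turn, E518K minus KO ran from −0.41 to 1.41 for miR-30e-3p. E518K minus WT ran from −0.77 to 0.26 for miR-30b-5p, −0.65 to 0.10 for miR-30d-5p, −0.42 to 0.54 for miR-30d-3p and −0.52 to 0.31 for miR-30c-2-3p, with 0 to 1 members higher and 164 to 233 microRNAs lower. E518K against KO gave 124 to 205 lower, and untreated WT against KO 93 to 153. Untreated E518K against KO gave 0 to 3 members higher, 0 to 3 microRNAs lower and 61 to 141 higher. The d-to-c log2 ratio difference ran from 1.25 to 1.66.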
